A study of Mus musculus with 12 samples.

Results

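Chromatin accessibility in naive CD4+ T cells was set against that in Th2 cells, both carrying a knockout of the super-enhancer (SE) near Ets1, in 4 of the 12 peak lists of a mouse ATAC-seq series. ATAC-seq marks stretches of DNA that a transposase can reach, and each list gives the stretches (peaks) called in 1 library. The 4 lists were chosen by the names of the lists and the source names. They are 2 technical replicates of 1 naive knockout sample and 2 Th2 knockout libraries that their titles number as separate biological replicates. The titles of these Th2 libraries say Th1 and number each as technical replicate 2, while the source name and the list name say Th2. The cells came from spleens of C57BL/6J-Ets1-SE-KO mice, so the deletion was present in both groups and cannot separate them. The naive cells were taken directly after negative selection on beads. The Th2 cells were such cells kept for 6 days on plates coated with anti-CD3, with anti-CD28, IL-4 and antibody to IFN-gamma. Wild-type naive and Th2 libraries and knockout Th1 libraries, 2 of each, were read only to see whether regions found in the knockout also had peaks there. The labels give neither age nor sex of the mice, nor whether animals were pooled.

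Naive CD4+ T cells circulate through lymphoid tissue with the help of homing receptors such as Ccr7, and factors including Tcf7, Lef1, Foxp1 and Klf2 are known for keeping them quiescent. Stimulation in the presence of IL-4 acts through Stat6 and Gata3 and turns such cells into Th2 cells, which produce IL-4, IL-5 and IL-13. Il4, Il13 and Il5 lie together in a cluster with Rad50, a DNA repair gene whose introns hold the locus control region of these cytokines. Ets1 is a transcription factor of the ETS family with known roles in T cell development and in helper cell differentiation.

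The naive lists held 40118 and 42791 peaks on chromosomes 1 to 19 and the Th2 lists 54832 and 51161, and read depth is unknown because the lists carry no counts. Peaks with the same bounds numbered 22 in the naive pair and 26 in the Th2 pair, so no list was a copy of its partner. At Gm27162, an annotated RNA gene at the targeted stretch (GRCm38, chr9:32904069-32928966), each naive knockout list had 1 peak and each Th2 knockout list 0, against 5 to 7 in each wild-type list of the series. None of 4 Y-linked genes had a peak in either naive knockout library, while all 4 had one in each Th2 knockout library, so a difference in the sex of the mice cannot be told apart from the difference in cell type. The list names also carry a different run tag for naive and for polarized cells, which cannot be told apart from cell type either. Each Th2 knockout list shared 67.4 to 68.6% of the joint regions with a wild-type Th2 list and 49.3 to 57.9% with a wild-type Th1 list. Counting peaks over the gene body with 1 kb on each side, all 6 naive T cell markers and all 6 T cell markers examined had a peak in each of the 4 libraries, and of 8 Th2 markers 8 and 7 had one in the Th2 libraries and 5 in each naive library. In this window Il4, Il5 and Il13 were the Th2 markers without a peak in the naive libraries, and Il13 lacked one in the second Th2 library.

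Overlapping peaks of the 4 lists formed 82510 regions, and most of them did not have a peak in all 4 libraries. A region is called Th2-only here where both Th2 libraries and neither naive library had a peak, and naive-only in the reverse case. There were 20346 Th2-only regions (24.7% of all) and 11536 naive-only regions (14.0%), while 19139 (23.2%) had a peak in all 4 libraries. The 2 naive libraries shared 72.7% of their joint regions and the 2 Th2 libraries 67.3%, whereas a naive and a Th2 library shared 31.9 to 32.4%. Every pair across the cell types therefore shared less than either pair within one. No test was made, because the naive pair is 1 sample measured again and the smallest exact permutation p that 2 against 2 libraries allow is 0.333. Absence of a peak says that none was called there, not that the DNA was closed. In bulk libraries fewer cells with an open region and less opening per cell cannot be told apart.

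**Figure D1:**
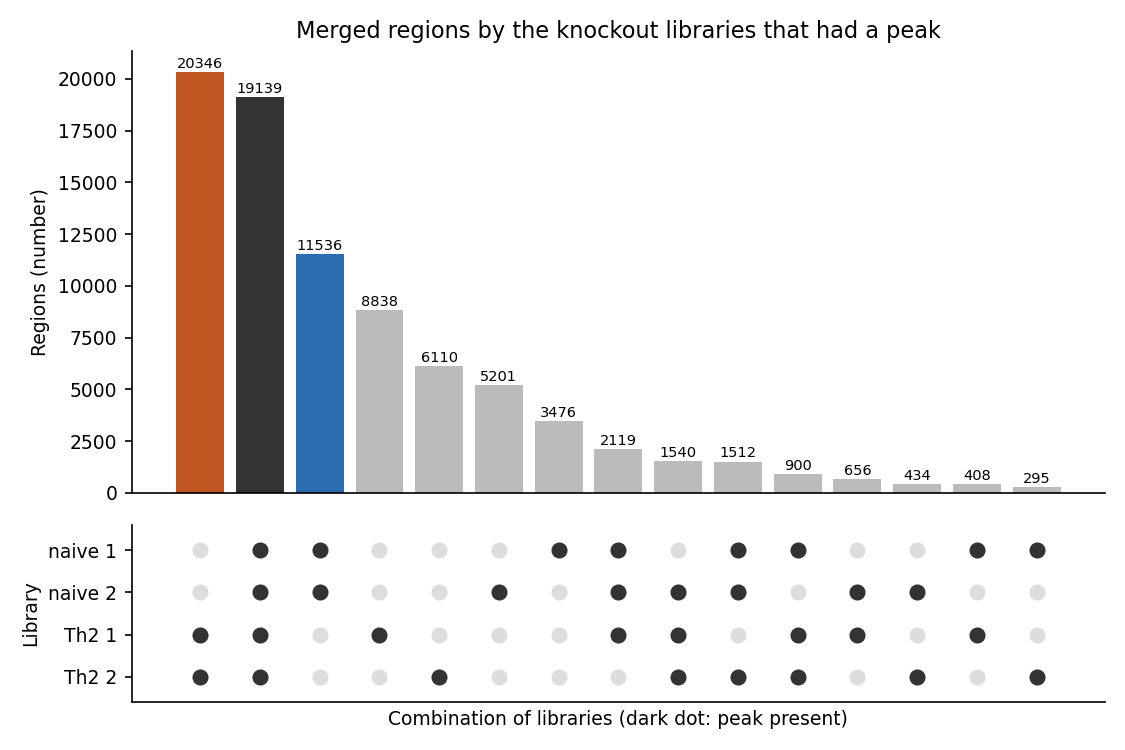
Number of merged regions (vertical axis) for each combination of the 4 knockout libraries that had a peak there (dark dots in the lower panel). The tallest bars are the 20346 regions in both Th2 libraries alone, the 19139 in all 4 libraries and the 11536 in both naive libraries alone.

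Part of the excess of Th2-only regions went with the longer Th2 lists. With 40118 peaks taken from every list, the strongest by the authors' q value, there were 14714 Th2-only and 13534 naive-only regions, so the Th2-only share of the one-sided regions was 52.1% in place of 63.8%. Regions open in all 4 libraries then numbered 15747 and outnumbered the Th2-only regions. Of the original calls, 71.5% of the Th2-only and 95.0% of the naive-only regions were called again with equal lists. Among calls above the 50th percentile of both lists of their group, a limit added after seeing the data, 8876 were Th2-only and 3464 naive-only. This was a Th2-only share of 71.9%. The percentile is taken within each list, so the limit was not equally strict in the 2 groups. Median -log10 q was 4.93 and 5.68 in the naive lists and 3.81 and 3.69 in the Th2 lists. With a common limit of -log10 q of 2 or more the Th2-only share was 58.8%. The median width was 478 bp for Th2-only and 406 bp for naive-only regions. Both kinds lay away from gene starts: 3.62% of Th2-only and 4.15% of naive-only regions came within 1 kb of a start listed by RefSeq, against 41.1% of the regions open in all 4 libraries. Their median distances to a listed start were 39.4, 33.1 and 7.80 kb, respectively.

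The Th2 cytokine genes had the highest share of Th2-only regions of the 21 gene lists examined. Regions were assigned to a gene when they touched its body or 20 kb on either side. Near all protein-coding genes 23.3% of the 66383 regions were Th2-only and 13.5% naive-only. Near 10 Th2 cytokine genes 25 of 51 regions (49.0%) were Th2-only and 4 (7.84%) naive-only, and with equal lists these shares were 44.2% and 11.6% beside 19.4% and 18.6% for all genes. All 10 genes had a Th2-only region, as did 55.6% of the protein-coding genes with any region. Neighbouring genes share some of these regions.

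Il4 had 4 Th2-only regions and 0 naive-only regions among 8. One covered a listed start of the gene (chr11:53617191-53618063) and ranked at the 75.9th percentile of the first Th2 list and the 56.0th of the second, where 100 is the strongest peak of a list by the deposited -log10 q. Il13, which lies next to Il4 and encodes the cytokine of mucus production and airway responses, had 3 among 6. Rad50 had 6 among 11, and 3 of these lay within the gene. The first (chr11:53650913-53651615) ranked at 85.0 and 77.8, the second (chr11:53654872-53655540) at 61.6 and 81.7, and the third (chr11:53662832-53663692) at 61.1 and 53.1. These 3 Rad50 regions also had peaks in both wild-type Th2 libraries, in both knockout Th1 libraries and in neither wild-type naive library. Il5, the cytokine of eosinophil growth, had 3 Th2-only regions of lower rank, between 12.6 and 51.2 in the 2 lists. None of the 3 had a peak in both knockout Th1 libraries, and 1 of the 3 was called with equal lists.

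**Figure D2:**
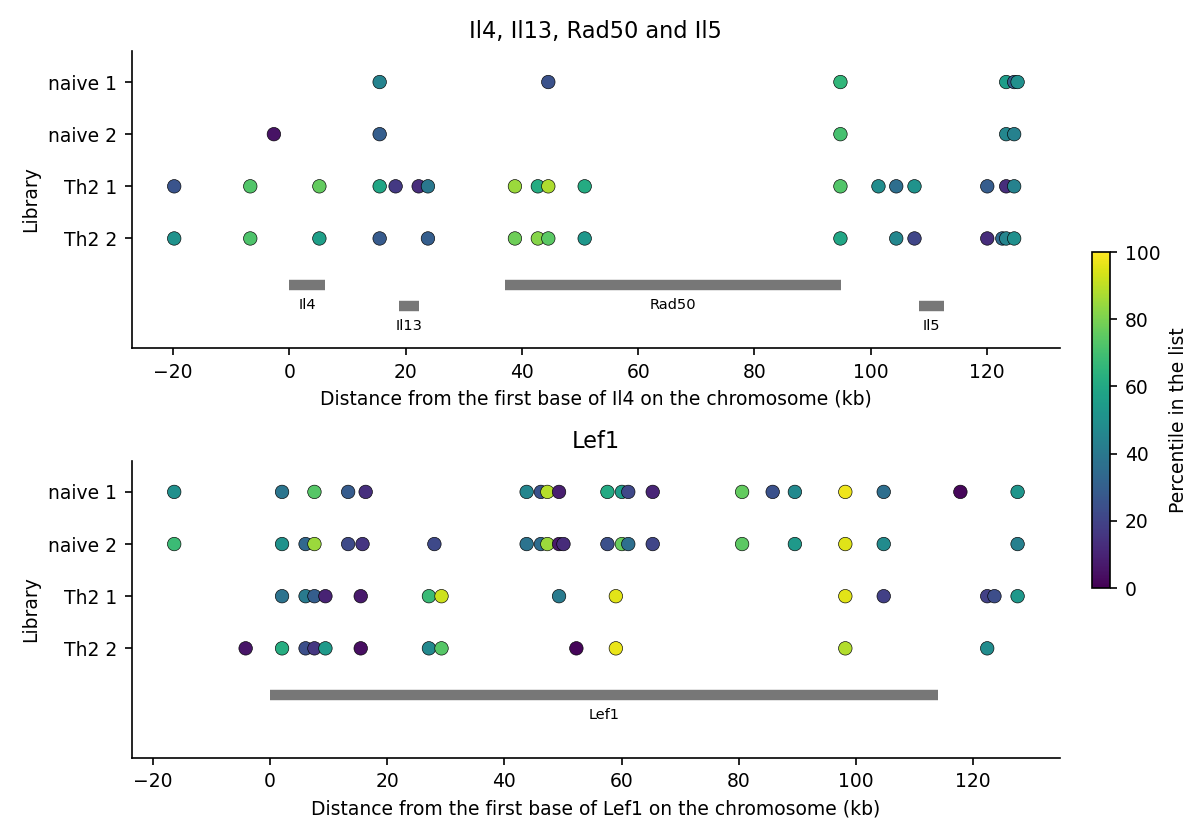
Peak positions in each knockout library along Il4, Il13, Rad50 and Il5 (upper panel) and along Lef1 (lower panel), as distance in kb from the first base of Il4 or of Lef1, with grey bars for genes and color for the percentile within the list. Within Rad50 the Th2 libraries carry 3 regions that neither naive library has, while along Lef1 naive-only and Th2-only positions alternate.

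Cytokines outside the cluster had Th2-only regions too. Il10, which encodes an inhibitory cytokine, had 5 Th2-only regions among 8 and none that was naive-only. The strongest in the second list (chr1:131037968-131038795) ranked at 74.3 and 84.3. Il24, a member of the IL-10 family on the same chromosome, had 5 Th2-only and 2 naive-only regions among 8. Of the 5 Th2-only regions 4 also had peaks in both knockout Th1 libraries. The Il24 region at chr1:130902292-130903035 ranked at 96.8 and 95.3, near the top of both Th2 lists. Areg, the gene of the epidermal growth factor receptor ligand amphiregulin, had 3 regions and all 3 were Th2-only. One of them, over the body of Areg (chr5:91139208-91140038, percentiles 88.3 and 78.8), had peaks in both wild-type naive libraries, so its absence from the naive lists was not seen in the wild type.

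Genes of Th2 regulators and receptors gave a mixed picture. Near 12 Th2 transcription factor genes 33 of 111 regions (29.7%) were Th2-only and 10 (9.01%) naive-only. Pparg, a nuclear receptor that Th2 cells require for full effector function, had 8 Th2-only regions among 9 and none in the other direction. The region at chr6:115437924-115438393 within Pparg ranked at 88.3 and 82.6. Gata3, the master regulator of the Th2 fate, differed little by this measure: of 8 regions, 4 were open in all libraries, 1 was Th2-only and 2 were naive-only. Near 10 genes of Th2 receptors and effectors 29 of 88 regions (33.0%) were Th2-only and 10 (11.4%) naive-only. Of the 29 Th2-only regions 16 also had peaks in both knockout Th1 libraries and 6 in neither. Il1rl1, the receptor for IL-33, had 7 Th2-only and 3 naive-only regions among 18. Those at chr1:40393129-40393812 (90.8 and 85.9) and chr1:40412472-40413471 (87.8 and 89.9) were the strongest of Il1rl1. Ccr4, a chemokine receptor of Th2 cells, had 6 Th2-only regions among 10 and 0 naive-only. Il4ra, the IL-4 receptor chain, had 5 Th2-only and 3 naive-only regions among 15. All 5 Th2-only regions of Il4ra also had peaks in both knockout Th1 libraries. The Il4ra region at chr7:125539284-125539713 ranked at 80.7 and 92.5, whereas its naive-only regions ranked between 0.886 and 58.2. Ccr8 and Il17rb, also on this list, had no Th2-only region.

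**Figure D3:**
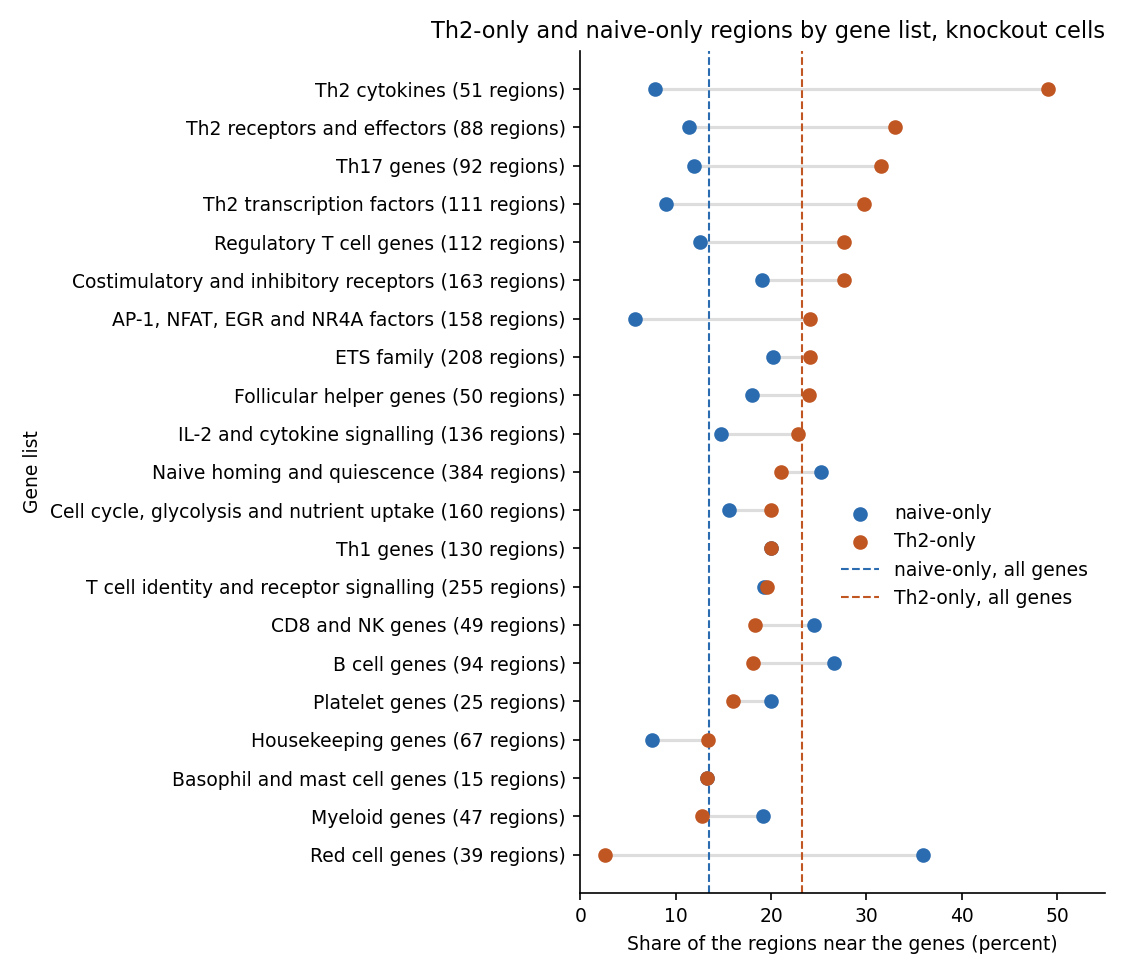
Share of the regions near the genes of each list (percent) that were Th2-only (orange) or naive-only (blue), with dashed lines for all protein-coding genes. Th2 cytokine genes lie farthest to the right in Th2-only regions (49.0%) and red cell genes in naive-only regions (35.9%).

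The genes of factors that act downstream of the T cell receptor had the lowest share of naive-only regions of the 21 lists. Near 17 AP-1, NFAT, EGR and NR4A genes 38 of 158 regions (24.1%) were Th2-only, close to the 23.3% for all genes, and 9 (5.70%) were naive-only. Their shared regions went the other way. Of 51 open in all 4 libraries, 11 ranked at least 20 percentile points higher in both naive libraries and 1 higher in both Th2 libraries. Over all shared regions 8.30% ranked higher in naive and 9.19% in Th2 cells. Nfatc2, a calcium-dependent factor, had 10 Th2-only regions and 0 naive-only among 23. One in its body (chr2:168491674-168492316) ranked at 98.3 and 98.2. Batf3, a partner of Jun proteins, had 7 Th2-only regions and 0 naive-only among 12, and the region at chr1:191114751-191115536 near Batf3 ranked at 98.2 and 94.8. By contrast, Fos had 0 Th2-only and 2 naive-only regions, and Junb had a peak in all 4 libraries at 8 of its 9 regions. Among costimulatory and inhibitory receptors 45 of 163 regions (27.6%) were Th2-only and 31 naive-only. Il2ra, the high-affinity chain of the IL-2 receptor, had 7 Th2-only and 2 naive-only regions among 20. Cd28, the receptor engaged in the cultures, had 8 Th2-only and 3 naive-only regions among 16. Its naive-only region at chr1:60758122-60758730 ranked at 94.0 and 93.7 in the naive lists, and the Th2-only region of Cd28 at chr1:60767372-60767800 at 69.6 and 94.4 in the Th2 lists.

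At genes of naive homing and quiescence the regions turned over in both directions. Near 20 such genes 97 of 384 regions (25.3%) were naive-only, beside 13.5% for all genes, and 81 (21.1%) were Th2-only, beside 23.3%. More naive-only than Th2-only regions were found at 12 of the 20 genes and the reverse at 5, against 22.4% and 40.3% of all protein-coding genes with a region. Lef1 had 11 naive-only and 6 Th2-only regions among 33. Its naive-only region at chr3:131157423-131157834 ranked at 88.8 and 85.0 in the naive lists, although both wild-type Th2 libraries had a peak there. Further along Lef1 a Th2-only region (chr3:131168950-131169691) ranked at 95.4 and 96.6. Tcf7, the factor TCF-1, had 4 naive-only and 3 Th2-only regions among 13. The naive-only regions within Tcf7 at chr11:52268322-52268910 (76.1 and 80.9) and chr11:52275361-52275872 (73.5 and 81.5) had peaks in both wild-type naive libraries and in no wild-type Th2 or knockout Th1 library. A Th2-only region over a listed start of Tcf7 (chr11:52282968-52283537) was weak, at 10.3 and 21.4 in the Th2 lists.

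Among the genes of homing, Ccr7, the receptor that guides cells into lymph nodes, had 3 naive-only and 2 Th2-only regions among 12. Its region at chr11:99154932-99155537 was open in all 4 libraries. When only the 19139 shared regions were ranked, it stood at 86.6 and 86.2 in the naive libraries and at 9.38 and 12.8 in the Th2 libraries, so the ranks of the 2 cell types did not overlap. S1pr1, needed for leaving lymph nodes, had 3 naive-only and 2 Th2-only regions among 12. With 5 kb in place of 20 kb the balance at Ccr7 and S1pr1 turned. Klf2, a factor upstream of S1pr1, had 1 naive-only and 2 Th2-only regions among 6.

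Il7r, the receptor for the survival cytokine IL-7, had 3 Th2-only regions and 0 naive-only among 6. The region within Il7r at chr15:9520339-9520874 ranked at 98.1 and 99.1 and had peaks in both wild-type Th2 and both knockout Th1 libraries. Foxp1, a repressor that holds naive cells at rest, had 23 naive-only regions, more than any other protein-coding gene, and 15 Th2-only regions among 85. Of the 12 Foxp1 regions open in all 4 libraries, 6 ranked at least 20 points higher in both Th2 libraries and 1 in both naive libraries. Bach2, a repressor of effector genes, leaned to the other side with 23 Th2-only and 12 naive-only regions among 73. Both are long genes with many regions. Genes of T cell identity and receptor signalling had 50 Th2-only (19.6%) and 49 naive-only (19.2%) of 255 regions, beside 23.3% and 13.5% for all genes, and 10 of these 17 genes had more naive-only regions and 5 more Th2-only. Cell cycle, glycolysis and nutrient uptake genes had 32 Th2-only and 25 naive-only (15.6%) regions of 160, a Th2-only share under the 23.3% for all genes.

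Genes of the other helper fates had Th2-only as well as naive-only regions. Near 16 Th1 genes 26 of 130 regions were Th2-only and 26 naive-only, which is under the 23.3% and over the 13.5% for all genes. Ifng, the Th1 cytokine, had 4 naive-only regions and 1 Th2-only region among 6. The naive-only region next to the start of Ifng (chr10:118440769-118441041) was weak, at percentiles 9.54 and 25.4, and the one at chr10:118461378-118461863 ranked at 53.4 and 51.1. The single Th2-only region of Ifng (chr10:118458701-118459098) ranked at 91.4 and 69.1 and had peaks in both wild-type naive libraries. Tbx21, the Th1 master regulator T-bet, had 2 Th2-only regions and 0 naive-only among 6, at percentiles of at most 33.4 in the Th2 lists. Near 10 Th17 genes 29 of 92 regions (31.5%) were Th2-only, with 11 of them at Rora, a nuclear receptor gene. Regulatory T cell genes gave 31 of 112 (27.7%) and follicular helper genes 12 of 50 (24.0%), the latter close to the 23.3% for all genes. Il2ra, Batf, Il21 and a few other genes stand on more than 1 list.

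Ets1 itself, whose distal super-enhancer was deleted in all 4 libraries, had 8 naive-only, 6 Th2-only and 7 common regions among 30. Inside the gene the strongest Th2-only region (chr9:32669340-32669870) ranked at 92.3 and 92.7 in the Th2 lists. The naive-only region before Ets1 at chr9:32615890-32616360 ranked at 89.6 and 90.8 in the naive lists and also had a peak in both knockout Th1 libraries. Among shared regions, one in Ets1 at chr9:32661052-32662100 ranked at 6.04 and 0.703 in naive and at 89.6 and 82.2 in Th2 cells. The same 3 regions had the same pattern of presence in both wild-type naive and both wild-type Th2 libraries. The other ETS genes differed among themselves. Etv6, a repressor of the family, had 17 Th2-only and 5 naive-only regions among 39, and Fli1, the neighbour of Ets1, had 9 and 10 among 33. Across 12 ETS genes 50 of 208 regions (24.0%) were Th2-only and 42 (20.2%) naive-only.

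Some naive-only regions lay at genes of other cell types. Markers were again counted over the gene body with 1 kb on each side, a narrower window than the 20 kb used for regions. Of 6 B cell markers 6 and 6 had a peak in the naive libraries and 3 and 2 in the Th2 libraries, with summed peaks of 17 and 21 against 21 and 15. Cd79b and Ms4a1 were among the markers at 0 in both Th2 libraries, whereas Ebf1 had 8 and 10 peaks in naive and 18 and 14 in Th2 cells. Near 12 B cell genes 25 of 94 regions (26.6%) were naive-only, 5 of them at Cd79b, a chain of the B cell receptor. At Ebf1, a B lineage factor, 12 of 30 regions were Th2-only and 9 of these 12 also had peaks in both knockout Th1 libraries. Of 7 red cell markers 6 had a peak in each naive library and 2 in each Th2 library, summing to 9 and 11 against 2 and 2, and Gata1 was at 0 in all 4. Alas2, which like Gata1 lies on X, gave 2 and 2 of these peaks in the naive and 0 and 0 in the Th2 libraries. The red cell list had the highest naive-only share of all lists, 14 of 39 regions (35.9%), with 1 Th2-only. At the beta-globin gene Hbb-bs 4 of 6 regions were naive-only, and 3 of these 4 had no peak in either wild-type naive library. Of 8 markers of CD8 and NK cells 6 had a peak in each naive library and 3 in each Th2 library, summing to 8 and 8 against 3 and 3. Cd8a, Cd8b1, Prf1 and Nkg7 were at 0 in the Th2 libraries and Ncr1 in all 4. Klrk1 went the other way, with 0 and 0 peaks in the naive and 1 and 1 in the Th2 libraries. Klrd1 and Gzma had 1 peak in each of the 4 libraries. Myeloid markers gave 4 and 4 against 3 and 2 of 8, summing to 8 and 7 against 5 and 2, with Lyz2, Adgre1, S100a8 and S100a9 at 0 in all 4 libraries. Of 4 basophil and mast cell markers 1 had a peak in each naive library and 0 in each Th2 library, and Mcpt8, Fcer1a and Ms4a2 were at 0 in this window throughout. Of 3 platelet markers 2 had a peak in each naive library and 1 in each Th2 library, with Pf4 at 0 in this window throughout. The part of other cells in the naive-only regions was not tested.

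Long genes carried the highest counts. Inpp4b, a phosphoinositide phosphatase gene, had 39 Th2-only and 13 naive-only regions among 94. Sox5 had 26 Th2-only regions among 63, Arhgap15 had 24 among 39, and Celf2, Fhit, Lpp and Zbtb20 had 22 each. In the naive direction, after Foxp1, Prkce had 18 among 41 and Sgms1 had 18 among 52. Inpp4b, Bach2 and Lpp were among the 10 highest in both directions, ties taken by symbol. These counts are not corrected for gene length.

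Few promoters had a peak in 1 cell type alone. Of 16457 protein-coding genes with a listed start, 430 (2.61%) had a peak within 1 kb in both Th2 libraries alone and 236 (1.43%) in both naive libraries alone, while 8104 (49.2%) had one in all 4 libraries. With equal lists the direction turned, to 225 Th2-only and 439 naive-only promoters. All 12 listed genes of T cell identity, all 8 housekeeping genes, and the homing and fate genes Klf2, Lef1, Gata3 and Il4ra had a promoter peak in all 4 libraries. The Th2-only promoters on the lists included those of Il4, Il5, Il9, Areg, Pparg, Batf3, Havcr2, Il21 and Il17a. Tcf7 and Klrb1c, a gene of NK cells, also had a Th2-only promoter by their listed starts. The naive-only promoters on the lists were those of the T cell genes Dapl1, Slfn2, Tnfsf8 and Ifng, of the B cell genes Cd79a, Fcer2a and Pax5, of the globin genes Hbb-bs and Hbb-bt, of the myeloid gene Itgam and of the cytotoxic genes Nkg7 and Prf1.

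The 250 bases before the listed start of 6 of these genes are shown from RefSeq (GRCm38.p6), 5′ to 3′ on the strand of the gene, because a peak overlapped this stretch in both libraries of 1 cell type and in neither of the other. They were picked after the values were seen. The listed start of Il4 lies inside the annotated gene (chr11:53612460-53618665), so its window is not the stretch before the outermost start. Capitals mark matches on either strand. They are to TGANTCA (the letters searched for AP-1, where N is any base) in Il9 and Havcr2. The base at N is C in Il9 and T in Havcr2. The other matches are to a STAT motif (TTC and GAA with any 4 bases between) in Il9 and to TGGAAA (an NFAT core) in Slfn2. The first 3 had a peak in Th2 cells alone, at chr11:53617339-53617588 (Il4, minus strand), chr13:56482258-56482507 (Il9, minus strand) and chr11:46454681-46454930 (Havcr2, the inhibitory receptor Tim-3, plus strand).
Il4: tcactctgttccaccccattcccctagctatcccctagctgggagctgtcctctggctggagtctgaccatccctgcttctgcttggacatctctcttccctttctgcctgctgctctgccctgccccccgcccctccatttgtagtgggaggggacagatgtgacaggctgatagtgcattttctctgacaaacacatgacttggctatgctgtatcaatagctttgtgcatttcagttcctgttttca
Il9: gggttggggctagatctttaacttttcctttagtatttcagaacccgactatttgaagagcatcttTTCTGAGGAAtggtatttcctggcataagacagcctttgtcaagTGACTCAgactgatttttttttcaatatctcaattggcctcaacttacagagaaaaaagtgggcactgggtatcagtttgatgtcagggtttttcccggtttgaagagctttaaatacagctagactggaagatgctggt
Havcr2: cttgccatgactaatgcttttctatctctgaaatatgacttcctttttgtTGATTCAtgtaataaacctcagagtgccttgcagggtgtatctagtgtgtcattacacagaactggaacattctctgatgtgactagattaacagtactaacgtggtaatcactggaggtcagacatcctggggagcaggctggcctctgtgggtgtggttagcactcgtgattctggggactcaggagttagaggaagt
The other 3 had a peak in naive cells alone, at chr11:83064862-83065111 (Slfn2, a factor of T cell quiescence), chr2:59484403-59484652 (Dapl1) and chr10:118440796-118441045 (Ifng), each on the plus strand.
Slfn2: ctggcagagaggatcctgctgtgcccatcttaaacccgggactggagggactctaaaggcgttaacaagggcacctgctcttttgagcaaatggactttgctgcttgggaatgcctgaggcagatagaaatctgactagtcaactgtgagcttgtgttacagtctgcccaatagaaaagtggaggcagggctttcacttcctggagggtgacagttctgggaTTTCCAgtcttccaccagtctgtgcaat
Dapl1: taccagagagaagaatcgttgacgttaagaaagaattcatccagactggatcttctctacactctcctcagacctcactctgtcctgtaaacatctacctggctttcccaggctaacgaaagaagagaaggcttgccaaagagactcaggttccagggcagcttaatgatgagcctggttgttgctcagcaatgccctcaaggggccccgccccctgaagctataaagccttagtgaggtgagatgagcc
Ifng: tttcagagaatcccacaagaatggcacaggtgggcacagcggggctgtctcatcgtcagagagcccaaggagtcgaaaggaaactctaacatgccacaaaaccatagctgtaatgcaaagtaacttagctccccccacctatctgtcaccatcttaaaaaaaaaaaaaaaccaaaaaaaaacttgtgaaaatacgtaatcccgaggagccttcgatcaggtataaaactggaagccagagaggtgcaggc
No match to the 6 motifs searched is in the windows of Il4, Dapl1 and Ifng. Fold enrichment over background, as the authors' caller gave it, was 4.27 and 3.63 at Il4, 3.22 and 4.45 at Il9 and 6.77 and 5.70 at Havcr2 in the 2 Th2 lists. It was 3.16 and 3.53 at Slfn2, 3.73 and 4.40 at Dapl1 and 3.64 and 4.27 at Ifng in the 2 naive lists.

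Over all 20085 such windows, the AP-1 letters TGANTCA were in 12.4% of the 354 with a peak in Th2 cells alone. They were in 5.92% of the 355 with a peak in naive cells alone, in 3.47% of those with a peak in all 4 libraries, in 8.56% of those without a peak and in 6.18% of all windows. The GATA letters AGATAA were in 7.34% of Th2-only and 13.2% of naive-only windows, beside 8.72% of all and 12.8% of those without a peak. The STAT motif was in 6.21% and 3.66% (6.46% without a peak), the NFAT letters TGGAAA in 11.9% and 17.2% (20.8% without a peak), and the TCF/LEF letters CTTTGA in 39 of 354 and 50 of 355 (15.8% without a peak). The ETS letters CGGAAG were in 32.0% of the windows open in all 4 libraries, against 9.04% of Th2-only and 10.4% of naive-only windows. They were in 5.75% of those without a peak and in 17.5% of all windows. Both strands were searched and matches of different motifs may overlap. Median GC content was 60.8% in Th2-only, 54.0% in naive-only and 61.2% in common windows, and its part in these shares was not tested.

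Regions open in all 4 libraries also differed in their order. Each was given its percentile by -log10 q among the 19139 shared regions, so that the same regions were ranked in every list. List length still affected which regions were shared. With equal lists 15747 were shared, of which 1563 ranked higher in Th2 and 1315 in naive cells. With the full lists the lower Th2 percentile exceeded the higher naive one by 20 points or more in 1759 regions (9.19%), and the reverse held in 1588 (8.30%). Ranked by fold enrichment the balance turned, to 1617 higher in Th2 and 1716 higher in naive cells. Between the 2 naive libraries the median difference was 6.57 points and between the 2 Th2 libraries 10.7, while naive and Th2 libraries differed by a median of 14.4 to 15.1 points. Leaving out either Th2 library raised the counts to 3025 and 3043 higher in Th2 and to 3078 and 3041 higher in naive. Of the regions that ranked higher in Th2 cells 12.8% lay within 1 kb of a listed start, beside 25.9% of those higher in naive cells and 41.1% of all shared regions. The largest gap was at chr16:50070373-50071173, with Bbx as the nearest protein-coding gene, where the percentiles were 1.48 and 2.78 in naive and 99.8 and 99.8 in Th2 cells. Within Stim1, the calcium sensor of store-operated entry, the region at chr7:102333758-102334268 went from 4.99 and 3.17 to 96.4 and 96.7. In the other direction, a region in Arid1b, a chromatin remodeller subunit (chr17:5007011-5007606), ranked at 97.0 and 95.5 in naive and at 6.78 and 2.98 in Th2 cells. A region in Mef2c (chr13:83609018-83609842) ranked at 87.2 and 83.1 against 1.49 and 1.05.

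**Figure D4:**
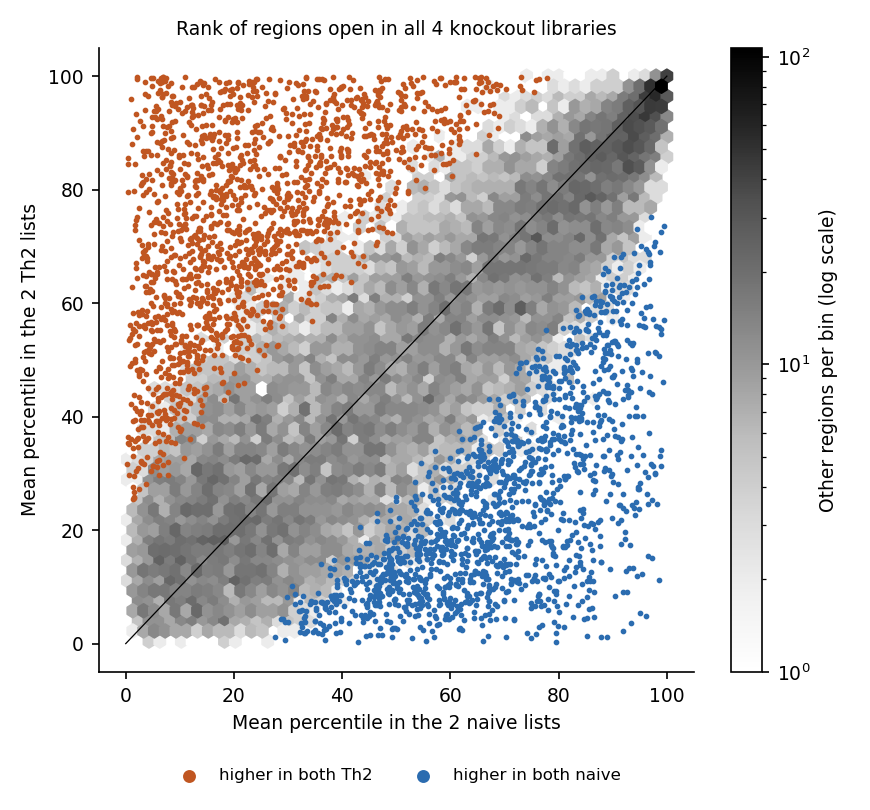
Mean percentile of the 19139 shared regions in the 2 naive libraries (horizontal axis) and the 2 Th2 libraries (vertical axis). Orange points are the 1759 regions ranked at least 20 points higher in both Th2 libraries, blue points the 1588 ranked higher in both naive libraries, and grey shading counts the other regions on a log scale.

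Libraries that did not define the calls mostly held the same regions. Of the Th2-only regions 78.8% had a peak in both wild-type Th2 libraries and 5.74% in both wild-type naive libraries. Of the naive-only regions 72.4% had a peak in both wild-type naive libraries and 3.62% in both wild-type Th2 libraries. Over all 82510 regions, 47291 and 46217 had a peak in the 2 wild-type Th2 libraries. In the 2 wild-type naive libraries 40653 and 41974 of all regions did. These are counts per library, and the number of regions with a peak in both libraries cannot be higher. The full call was the same in the wild type for 14431 Th2-only regions (70.9%) and 6938 naive-only regions (60.1%). Over all 82510 regions, 17476 were Th2-only and 12702 naive-only in the wild type. Most Th2-only regions were not limited to Th2 cells: 53.1% had a peak in both knockout Th1 libraries, 20.1% in 1 and 26.8% in none. Of all 82510 regions, 39132 had a peak in the first knockout Th1 library and 38414 in the second, again counted per library. Of the 25 Th2-only regions at Th2 cytokine genes 12 had a peak in both Th1 libraries and 6 in none. Naive-only regions had a peak in both knockout Th1 libraries in 4.01% of cases and in none in 85.3%. Among the Th2-only regions above the 50th percentile of both lists, 98.0% had a peak in both wild-type Th2 and 77.1% in both knockout Th1 libraries. The matching shares of all regions above that limit were not computed. The knockout Th2 and Th1 cells shared the 6 days of culture and the anti-CD3 and anti-CD28 stimulation. The part of these in the regions they had in common was not tested, nor were differences between the genotypes.

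**Figure D5:**
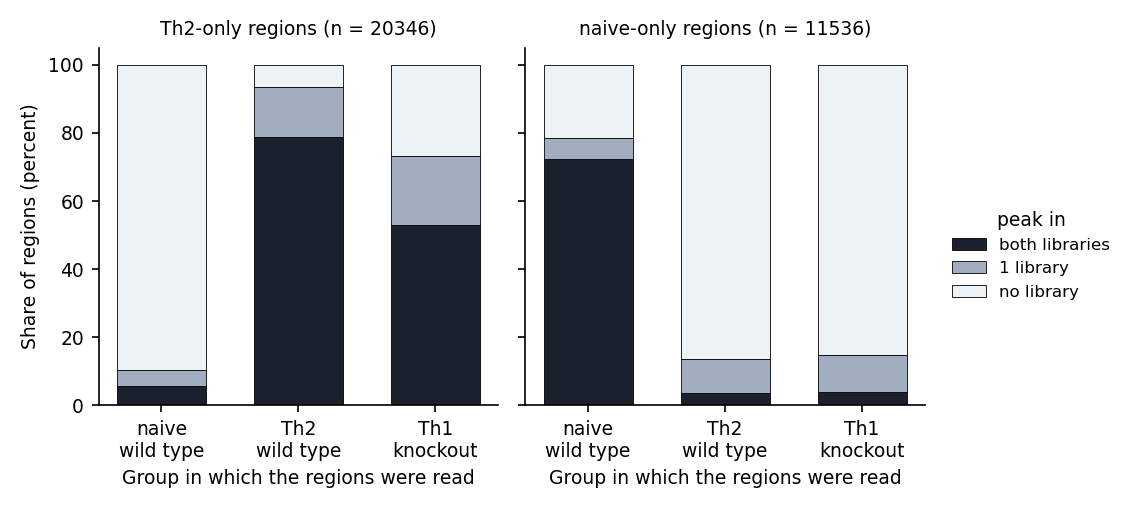
Share of the 20346 Th2-only (left) and 11536 naive-only regions (right) with a peak in both, 1 or no library of the wild-type naive, wild-type Th2 and knockout Th1 groups (percent). Both wild-type Th2 libraries hold 78.8% of the Th2-only regions and both wild-type naive libraries 72.4% of the naive-only regions.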

How the data were processed

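Per the submitters' processing notes, the authors used BWA, Picard and MACS2 with GRCm38, with tool versions, settings and any pooling before peak calling not given in the sources used here. In MACS2 layout, each deposited list holds 1 library, with a score, a fold enrichment (a ratio), a -log10 p and a -log10 q for each peak. These are the authors' own values per peak and were used only to rank or describe peaks within a list. Total reads are unknown, so no interval or floor was computed, and no background level can be given beyond the deposited q value.

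Chromosomes 1 to 19 were used, and X only as an alternative and for the markers Gata1 and Alas2. Markers were read over the gene body with 1 kb on each side. Peaks of the 4 lists that overlapped by 1 bp or more were merged. A library had a region where any of its peaks overlapped it, with the highest -log10 q as strength. Genes came from RefSeq (GRCm38.p6) by symbol, with 20 kb on each side. Of the 249 listed genes 11 lie on X and were left out, among them Foxp3, Cxcr3, Il2rg and Sh2d1a. The starts come from the RefSeq promoter table, which lists none for some genes. Samples were grouped by source name. The members and the 21 gene lists were chosen with earlier results of these data known. Named were 18 anchor genes, the 4 members of each list with most one-sided regions, the 10 genes with most in each direction, and the genes nearest the 10 largest rank gaps in each direction (126 genes). No test was made, since 2 against 2 libraries cannot give an exact p below 0.333. The alternatives changed list length, q value threshold, overlap, merging, chromosomes, windows, rank measure, gap and libraries. The restriction to calls above the 50th percentile of both lists was added after seeing the data. Some results are not reported here. The scripts (Python 3.11.15, numpy 2.4.6, pandas 2.3.3, matplotlib 3.10.9) were tested on simulated data.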

Additional observations from a re-analysis of the deposited data

Results flagged for a closer look

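Calls that were opposite in the 2 genotypes were rare. Of the Th2-only regions in the knockout, 83 were naive-only in the wild type, and 10 naive-only regions were Th2-only in the wild type. These differences between the genotypes were not tested. At 5 genes with such a region the libraries of 1 genotype moved opposite to those of the other. Among them Gzma is on a gene list but is not 1 of the 126 named genes. A region in Lef1 starting at 131125567 on chromosome 3 was Th2-only in the knockout (percentiles 6.66 and 3.76) and naive-only in the wild type (9.28 and 29.5). A region near Gzma, a granzyme gene, starting at 113087665 on chromosome 13 ranked at 62.6 and 56.4 in knockout Th2 and at 34.3 and 35.1 in wild-type naive cells. A region at Itga2b, the platelet integrin gene, starting at 102434438 on chromosome 11 ranked at 35.2 and 35.6 in knockout Th2 and at 37.65 and 29.97 in wild-type naive cells. A region in Celf2, an RNA-binding protein gene, starting at 6696312 on chromosome 2 ranked at 8.30 and 2.74 in knockout Th2 and at 17.1 and 0.658 in wild-type naive cells. A region in Sox5 starting at 144772127 on chromosome 6 was naive-only in the knockout (37.2 and 24.0) and Th2-only in the wild type (28.9 and 21.3). On the Y chromosome, which no comparison used, 4 genes had a peak in both Th2 knockout libraries and in no naive knockout library.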

How the results depend on the processing

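Equal lists turned the promoter counts to 225 Th2-only and 439 naive-only, and gave wild-type agreement of 76.3% for Th2-only and 55.5% for naive-only regions. Keeping peaks with -log10 q of 2 or more gave 16852 Th2-only and 11805 naive-only regions, a Th2-only share of 58.8%, and 312 and 309 promoters. Calls above the 50th percentile of both lists numbered 8876 and 3464. Requiring peaks over 50% of a region left 1039 and 966 shared regions ranked higher in Th2 and in naive cells, a gap of 10 points gave 2879 and 3066, and a gap of 30 points 1153 and 840.

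Leaving out each library in turn gave 21268 to 29575 Th2-only and 13132 to 16867 naive-only regions. It gave 498 to 671 Th2-only promoters (671 without the second Th2 library) and 305 to 402 naive-only promoters (402 without the first Th2 library). Regions ranked higher in Th2 numbered 2502 to 3043 and in naive 2329 to 3078 (2452 without the first naive library). Wild-type agreement was 54.3 to 68.6% and 54.4 to 56.0%. Fewer libraries make each call easier to meet. Gene lists above the background numbered 6 to 9 in Th2-only and 13 to 14 in naive-only regions, beside 9 and 13 with all libraries. Of 296 values of single genes and lists, 253 stayed within 1.5 times with equal lists, 219 with 5 kb windows and 87 above the 50th percentile. The balance turned at Cd86 and Il23r with equal lists, at Ccr7, Irf4, S1pr1, Stat5a and Tnfsf8 with 5 kb, and at 7 genes above the 50th percentile.

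No paired analysis was made. The naive replicate numbers mark technical and the Th2 numbers biological replicates, so equal numbers do not mark a pair. With depth unknown, how close an absent peak came to the caller's threshold cannot be seen.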
